A study of Mus musculus with 16 samples.

Results

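Tbc1d4, Wfs1 and Calcb are 3 genes chosen by their array signal, which was higher in adipose tissue macrophages with CD11c than in those without it, in lean or in obese mice, and because they belong to no other gene family examined in these data. They are 3 of 18193 genes with a probe set of a single gene symbol on the array, and 4 of the 34945 such probe sets measure them: 1435292 and 1455903 for Tbc1d4, 1448411 for Wfs1 and 1422639 for Calcb. The macrophages came from perigonadal fat of C57BL/6J mice aged 12 to 14 weeks, either lean (Lep +/+) or obese and leptin-deficient (Lep ob/ob). The sort kept cells with F4/80, the macrophage antigen encoded by Adgre1, and CD11b, and divided them into FB cells, which lack CD11c, and FBC cells, which have it. RNA from each sorted sample was amplified in 2 rounds and hybridised to its own array, with 4 arrays for FB and 4 for FBC in each genotype. Both obese groups lack functional leptin, so an effect of obesity and an effect of the missing hormone cannot be told apart.

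Tbc1d4, also called AS160, is a GTPase-activating protein for Rab proteins. In muscle and fat cells it holds vesicles with the glucose transporter GLUT4 inside the cell until the insulin-activated kinase Akt phosphorylates it. Wfs1 encodes wolframin, a membrane protein of the endoplasmic reticulum involved in calcium balance and in the response to unfolded proteins, and its loss in people causes Wolfram syndrome, with diabetes. Calcb encodes the beta form of calcitonin gene-related peptide, a vasodilator known best from sensory and enteric neurons, which acts through the receptor of Calcrl and Ramp1. The genes share no pathway by which they were picked.

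The promoters of Tbc1d4 and Wfs1 are shown to let a reader compare the sequence at their starts. The signal of both was highest in the same group, for Tbc1d4 by its brighter probe set. They are 300 bases, from 250 before to 50 after a start site, from RefSeq on GRCm38.p6, at chr14:101609142-101609441 (minus strand) and chr5:36988933-36989232 (minus strand). Capitals mark GC boxes (GGGCGG) and CCAAT boxes (CCAAT), searched on both strands.
Tbc1d4: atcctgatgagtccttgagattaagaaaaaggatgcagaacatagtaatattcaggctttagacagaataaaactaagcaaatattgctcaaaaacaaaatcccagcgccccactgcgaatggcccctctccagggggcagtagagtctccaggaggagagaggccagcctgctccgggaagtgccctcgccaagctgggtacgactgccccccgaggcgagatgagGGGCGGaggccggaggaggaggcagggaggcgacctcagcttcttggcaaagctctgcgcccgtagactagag
Wfs1: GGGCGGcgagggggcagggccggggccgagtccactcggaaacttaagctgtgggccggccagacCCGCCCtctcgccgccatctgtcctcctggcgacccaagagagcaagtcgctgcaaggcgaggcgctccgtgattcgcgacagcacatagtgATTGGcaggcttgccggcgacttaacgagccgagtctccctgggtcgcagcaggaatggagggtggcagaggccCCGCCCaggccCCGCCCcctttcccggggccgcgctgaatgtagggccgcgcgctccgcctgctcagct
The Wfs1 window held 4 GC boxes and 1 CCAAT box, and the Tbc1d4 window 1 GC box. Of 32851 promoter windows of this length, 35.7% held a GC box and 37.4% a CCAAT box. The Wfs1 window had 30 CpG dinucleotides and was 70% G or C, against medians of 7 and 52.7% over all windows, while Tbc1d4 had 12 and 55.7%. Neither window held a TATA box (TATAAA, 13.6% of windows), the lysosomal CLEAR-type E-box (TCACGTG, 3.77%), an AP-1 site (TGANTCA, 7.81%), the PU.1 site GAGGAAGT (3.2%) or the endoplasmic reticulum stress element (0.119%), which is CCAAT followed by CCACG after a spacer of 9 bases and so overlaps the CCAAT box.

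Values are the deposited intensities, set by the authors to a trimmed mean of 250 on every array. The median intensity of an array lay between 35.7 and 50.7, and this serves here as the mark of a dim probe set because the files give no detection calls. Each difference is given ± SE on the scale of quantile-normalized log2(intensity + 16), as fitted with limma; adding 16 makes the change of a dim gene look smaller than it is. All 7 macrophage markers looked at, among them Adgre1, Itgam and Csf1r, lay above the array median on every array. Itgax, which encodes CD11c, was at 8.80 ± 0.21 on that log2 scale in FB and 10.29 ± 0.49 in FBC of lean mice, and at 8.78 ± 0.36 and 10.99 ± 0.39 in those of obese mice (mean ± SD, n = 4 each). The actin 3'/5' probe set ratio, a measure of RNA quality, was 45.0 to 53.3 on array 4 of lean FB, lean FBC and obese FB and 1.15 to 10.9 on the other 13. Lean FB array 4 also stood apart in Siglecf, an eosinophil lectin, at 11.98 on the log2 scale, where arrays 1 to 3 of its group had 7.98 to 8.53. Precision is limited by the 4 arrays of a group. The labels do not say whether the sorted samples came from separate mice, so the p-values cover the spread between these samples, which may be technical.

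Wfs1 had its highest signal in obese FBC. The intensity there was 2215.5, 2120.5, 1430.5 and 2179.0 on arrays 1 to 4. In lean FBC it was 745.1, 304.2, 430.4 and 341.9, and in obese FB 393.0, 199.3, 328.4 and 194.0. In lean FB it was 132.9, 243.3, 284.3 and 190.1. Every obese FBC array lay above every other array, and array 3 was the lowest of them. Lean FBC lay above lean FB without overlap, while obese FB overlapped both lean groups. Mean log2 levels ran from lean FB (7.78 ± 0.43) through obese FB (8.23 ± 0.44) and lean FBC (8.83 ± 0.52) to obese FBC (10.97 ± 0.29), and only the last step separated neighbouring groups. FBC exceeded FB by 1.05 ± 0.28 in lean mice and by 2.74 ± 0.28 in obese mice, a 2.07-fold and a 6.68-fold difference. The rule used these differences, so they carry no test.

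Tbc1d4 probe set 1435292, the brighter of its pair, was likewise highest in obese FBC. Its intensity there was 732.6, 591.7, 256.6 and 785.2 on arrays 1 to 4. The lean FBC arrays were far apart, at 415.5, 696.9, 165.2 and 148.7. In lean FB it was 159.8, 124.8, 152.2 and 70.4, and in obese FB 76.4, 36.9, 89.2 and 31.3. Obese FBC lay above obese FB on all arrays. Lean FBC overlapped obese FBC, and lean FBC arrays 3 and 4 were close to the top of lean FB, above it after normalization (lowest 7.46 against highest 7.41 on the log2 scale) but overlapping it in the deposited intensities. Mean log2 levels rose in the order obese FB (6.18 ± 0.51), lean FB (7.06 ± 0.39), lean FBC (8.29 ± 0.99) and obese FBC (9.05 ± 0.78), and obese FB overlapped lean FB. FBC exceeded FB by 1.23 ± 0.44 in lean mice and by 2.87 ± 0.44 in obese mice, again with no test because the rule used them.

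The second Tbc1d4 probe set, 1455903, did not show the lean difference. Its intensity was 98.6, 128.7, 158.8 and 37.3 in lean FB and 109.0, 77.8, 105.2 and 11.2 in lean FBC. It was 47.6, 29.1, 25.5 and 16.1 in obese FB and 54.2, 80.5, 179.2 and 125.2 in obese FBC. The lean groups overlapped, with array 4 the lowest of each, and these are arrays of high actin ratio; the part of RNA quality was not tested for this probe set. In obese mice the FBC arrays all lay above the FB arrays, as with the first probe set, but obese FBC array 3 was the highest here and the lowest there. FBC minus FB was -0.43 ± 0.43 in lean mice and 1.37 ± 0.43 in obese mice, and the probe sets correlated over the 16 arrays at r = 0.497, given as a description since the arrays share groups. A higher mean in lean FBC than in lean FB was therefore seen with 1 of the 2 probe sets only. That difference was not tested, and the deposited intensities of its lean groups overlapped.

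Calcb followed another pattern and was dim on every obese array. In lean FBC its intensity was 107.5, 192.8, 214.1 and 280.0 on arrays 1 to 4. In lean FB it was 30.7, 52.8, 41.1 and 28.7. In obese FB it was 16.5, 16.2, 24.4 and 3.5, and in obese FBC 10.4, 25.2, 15.2 and 15.0. Lean FBC stood above all other arrays, and obese FB and obese FBC overlapped at levels under the array median. Mean log2 levels were 4.88 ± 0.38 in obese FB, 5.01 ± 0.26 in obese FBC, 5.68 ± 0.17 in lean FB and 7.71 ± 0.56 in lean FBC, and the lean FB arrays lay above both obese groups. FBC exceeded FB by 2.03 ± 0.26 in lean mice and by 0.13 ± 0.26 in obese mice. The size of the lean difference depends on the floor, since 3 of the 4 lean FB arrays lay under the array median, and it was 2.42 with a pseudocount of 1. Calcb thus went against a description of these genes as markers of CD11c-positive cells in obese fat: it was high in those of lean fat, the difference by which it was chosen.

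**Figure D1:**
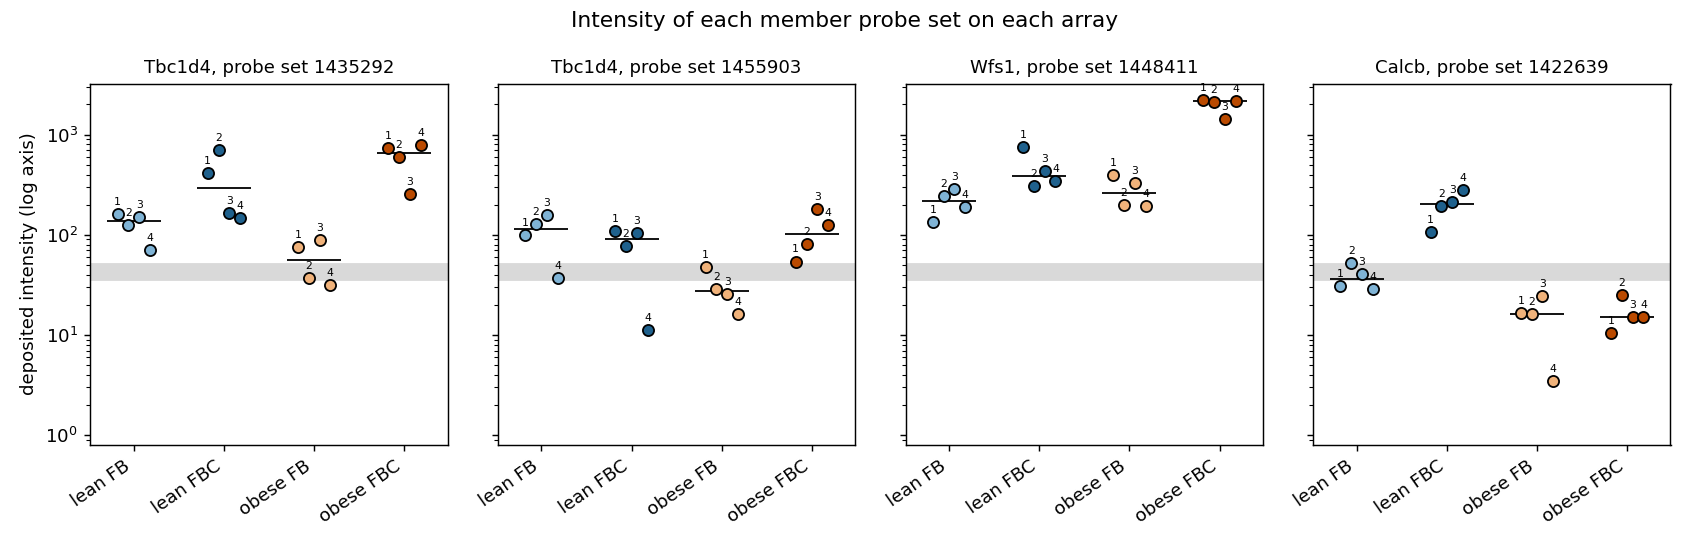
Deposited intensity (log axis) of the 4 probe sets on each array, by group; the number beside a point is the array number, the bar is the group median and the grey band spans the array medians, 35.7 to 50.7. Wfs1 was highest on the 4 obese FBC arrays (1430.5 to 2215.5) and Calcb on the 4 lean FBC arrays (107.5 to 280.0), and the Tbc1d4 probe sets differed in lean FBC.

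With each gene taken by its brighter probe set, the normalized values of every FBC array lay above those of every FB array for 3 of the 3 genes in lean mice, where 3.49% of the 11908 genes tested did so, and for 2 of the 3 in obese mice, where 11% did. These counts only restate the choice of the genes. Between genotypes, obese FBC lay above lean FBC without overlap for Wfs1 alone (12.4% of all genes), and lean lay above obese for Calcb alone, in FB (6.32%) and in FBC (7.61%). The difference between FBC and FB was larger in obese than in lean mice by 1.63 ± 0.63 for Tbc1d4 and by 1.69 ± 0.40 for Wfs1, and it was -1.90 ± 0.36 for Calcb, all as descriptions.

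Obesity was compared next, as the mean of its effect in FB and in FBC. In a balanced model the estimate of this contrast shares no error with FBC minus FB in either genotype, and the rule did not use it. Its SE comes from the same spread within the 4 groups, so its p may not be fully separate from the choice of the genes. Wfs1 rose with obesity by 1.30 ± 0.20 (limma adjusted p = 0.000308), a 2.46-fold change. Calcb fell by 1.75 ± 0.18 (limma adjusted p = 5.08e-06), and all 8 obese arrays lay below all 8 lean arrays. Tbc1d4 did not pass, at -0.06 ± 0.31 (limma adjusted p = 0.919). Its 95% interval ran from -0.72 to 0.60, so a change of either sign within that range was not excluded. Of all genes tested 18.9% passed in this contrast, 10.1% higher and 8.78% lower. The 2 of 3 here are not comparable with that share, because Calcb was selected in a way that favoured a fall.

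The passing contrast of Calcb has a limit of its own. Calcb passed the filter on low values, which asks for a level above the array median on at least 4 arrays, through the 4 lean FBC arrays and 1 lean FB array, so a difference from the dim groups was built into its selection. Without the filter the difference was the same and the limma adjusted p was 7.57e-06, and with a pseudocount of 1 the fall was larger, at -2.47. In both fits Calcb was still a gene chosen for its high level in lean FBC, so neither value lifts this limit. Wfs1 lay above the array median on all 16 arrays.

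By population, Wfs1 in obese against lean mice differed by 0.46 ± 0.28 in FB and by 2.15 ± 0.28 in FBC. Calcb differed by -0.80 ± 0.26 in FB and by -2.69 ± 0.26 in FBC. Tbc1d4 went in opposite directions, -0.88 ± 0.44 in FB and 0.76 ± 0.44 in FBC for probe set 1435292, and -1.29 ± 0.43 and 0.52 ± 0.43 for 1455903, and lean and obese arrays overlapped in all 4 of these comparisons. These contrasts share arrays with the choice of the genes and are given without a test. In the fit over 21070 single probe sets, obesity averaged over both populations gave -0.38 ± 0.30 for Tbc1d4 1455903 (limma adjusted p = 0.417).

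**Figure D2:**
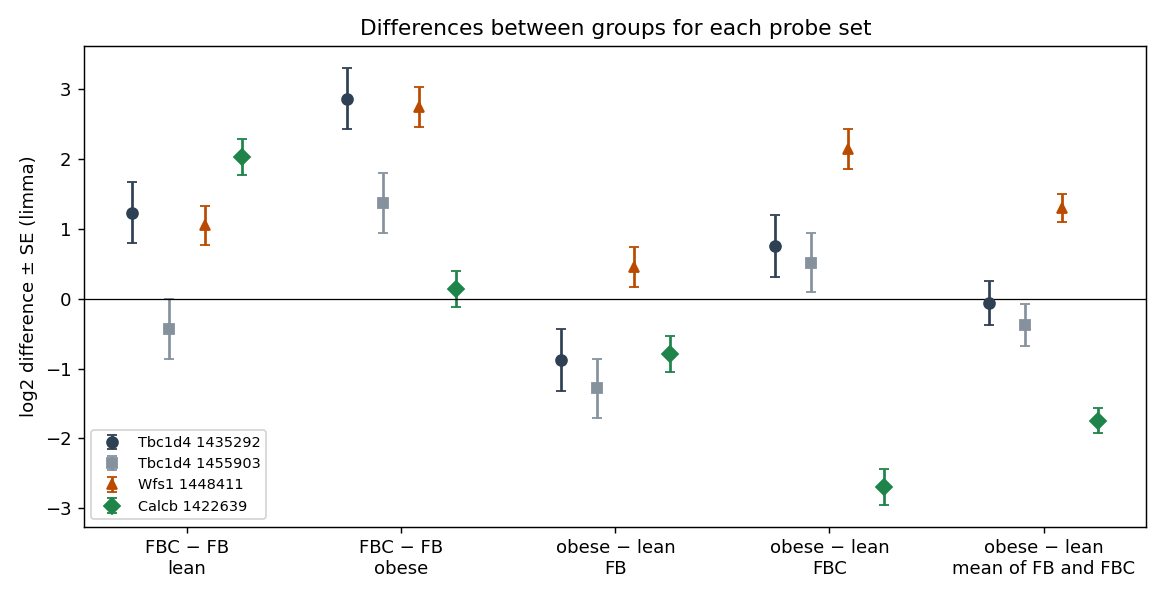
Log2 differences ± SE from limma over single probe sets, for 5 contrasts of the 4 groups. Wfs1 was above 0 in all 5; Calcb reached 2.03 for FBC minus FB in lean mice and fell to -2.69 for obese minus lean in FBC; the Tbc1d4 probe sets lay on opposite sides of 0 for FBC minus FB in lean mice.

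Macrophage markers and those of other cells moved with these groups. The mean log2 level of the 7 macrophage markers was 11.74 to 11.92 on the obese FBC arrays and at most 11.63 on the other arrays, the arrangement of Wfs1. Cd68, a lysosomal membrane protein among them, averaged 12.98 in obese FBC against 12.10 in obese FB, 11.98 in lean FBC and 11.89 in lean FB. Adgre1, Mertk and Fcgr1 also had their highest group mean in obese FBC. Csf1r, Lyz2 and Itgam did not, at 13.57, 13.50 and 7.79 in obese FBC against 13.63, 13.53 and 7.85 in obese FB. Of 9 dendritic cell markers 8 had a probe set, and their mean log2 level per array was 7.30 to 7.80 in lean FB and 8.32 to 9.07 in lean FBC. It was 6.19 to 6.82 in obese FB and 7.40 to 8.10 in obese FBC, so it was higher in FBC in both genotypes, as was Wfs1. The mean dendritic level was highest in lean FBC, as was Calcb, whereas Wfs1 was highest in obese FBC. Among these markers Flt3 was instead highest in obese FBC, at 8.15 against 7.54 in obese FB, 7.14 in lean FBC and 6.56 in lean FB. Xcr1, which was above the array median on no array, was highest in obese FB (5.24). Of these 8 markers 6 lay above the median on all arrays of each group but obese FB, where 5 did, and Ccr7, the receptor of migrating dendritic cells, averaged 7.07 in FB and 9.13 in FBC of lean mice and 6.13 and 8.12 in those of obese mice. The 5 measured of 7 neutrophil markers ran the other way in lean mice, at 7.33 to 7.66 in lean FB and 5.32 to 6.50 in lean FBC, and overlapped in obese mice (6.03 to 7.64 and 5.09 to 6.64). Their part in the differences of Tbc1d4, Wfs1 and Calcb was not tested. Fewer cells of a type and less RNA per cell cannot be told apart in sorted bulk samples.

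Calcb is best known from neurons, and Tbc1d4 from fat cells and muscle. Of 14 neuron and glia markers 11 had a probe set, and 10 of them were above the median on no lean FBC array. Their mean was 4.80 to 5.15 in lean FBC and 5.06 to 5.27 in lean FB, levels at which these probe sets are dim, and the part of such cells in the Calcb signal was not tested. Of 9 adipocyte markers 7 were measured, and their mean was 5.87 to 6.94 in lean FB and 5.90 to 7.01 in lean FBC. It was 5.49 to 5.58 in obese FB and 5.79 to 6.19 in obese FBC, a shift in the direction of Tbc1d4 in obese mice only. Slc2a4, which encodes the transporter GLUT4 that Tbc1d4 controls in fat cells, was above the array median on 0 of 16 arrays. The 8 fibroblast markers averaged 7.61 to 10.39 in FB and 7.26 to 9.57 in FBC of lean mice and 7.31 to 7.39 and 7.44 to 9.37 in those of obese mice, and array 4 was the lowest of each of the lean groups.

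Without the 3 arrays of high actin ratio, the differences of the 3 genes stayed close. Wfs1 rose with obesity by 1.32 ± 0.23 (limma adjusted p = 0.000657) and Calcb fell by 1.58 ± 0.16 (limma adjusted p = 7.09e-06). FBC minus FB was 1.12 in lean and 2.62 in obese mice for Wfs1, 1.32 and 2.72 for Tbc1d4 by probe set 1435292, and 1.77 and -0.04 for Calcb.

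The known partners of Calcb were read from a list of 13 calcitonin family peptides, receptors and processing enzymes. Of the 12 with a probe set 8 were tested, and with obesity 1 rose and 2 fell, 37.5% against 18.9% of all genes. The peptide adrenomedullin, Adm, fell by 2.38 ± 0.25 (limma adjusted p = 5.59e-06), from 8.98 ± 0.58 in lean FB and 9.57 ± 0.81 in lean FBC to 6.23 ± 0.25 in obese FB and 7.57 ± 0.37 in obese FBC. Ramp3, an accessory protein that turns the receptor toward adrenomedullin, fell by 1.27 ± 0.23 (limma adjusted p = 0.00104). Calcrl, the receptor that Calcb peptide and adrenomedullin share, rose by 0.86 ± 0.21 (limma adjusted p = 0.00848). With probe sets averaged per gene, Calcrl rose by 0.36 and Adm fell by 1.48, both still called. Ramp1, which pairs with Calcrl to form the receptor of Calcb peptide, was above the median on all 16 arrays and did not pass for obesity (limma adjusted p = 0.71).

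The other genes of that list did not pass for obesity or were dim. Ramp2, Ece1, Crcp and Gpr182 did not pass for obesity (limma adjusted p 0.223 to 0.632). The peptides Adm2 and Iapp, the calcitonin receptor Calcr and the peptidase Mme lay under the array median on all 16 arrays. By limma 0 genes of the list passed for FBC minus FB in lean mice, where 0.193% of all genes did, so few or no calls are likely for any short list. At an unadjusted p under 0.05 there was 1, and the share of all genes at that level was not counted, here or for the other lists. In obese mice 1 passed, against 8.39% of all genes, namely Adm, which was higher in FBC by 1.34 ± 0.35 (limma adjusted p = 0.0263). That call ended without obese FB array 1, 3 or 4 or obese FBC array 2, 3 or 4 (limma adjusted p up to 0.0751), and with the actin ratio as a covariate (0.0858); 2 genes passed without lean FBC array 4.

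**Figure D3:**
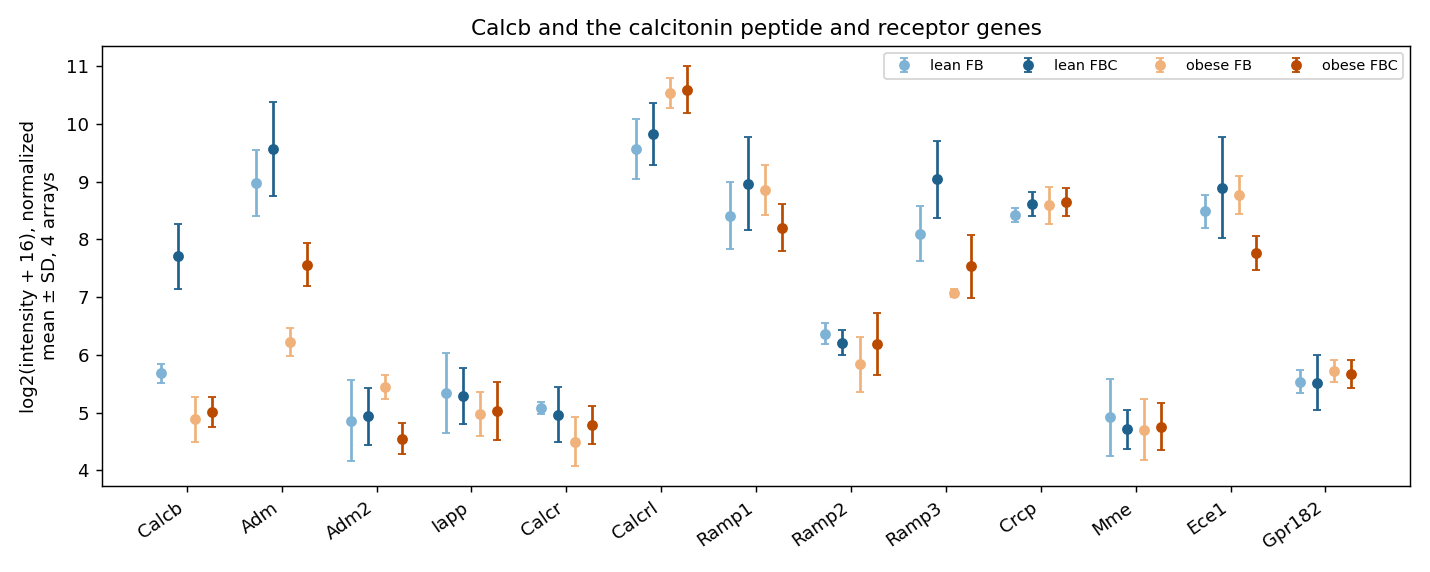
Normalized log2(intensity + 16), mean ± SD of 4 arrays, for Calcb and the 12 measured genes of its family list in each group; levels may be compared within a gene, not between genes. Calcb and Adm were lower in both obese groups than in the lean group of the same population, Calcrl was higher, and Adm2, Iapp, Calcr and Mme stayed near 5.

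Around Tbc1d4, a list of 39 genes of insulin signalling and GLUT4 vesicles had 34 tested. With obesity 5 rose and 4 fell, 26.5% against 18.9% of all genes, with a list median of -0.01 against 0.06 for all genes. The insulin receptor substrate Irs1 fell by 1.30 ± 0.26 (limma adjusted p = 0.003), and the glucose transporters Slc2a3 by 1.34 ± 0.34 (0.0124) and Slc2a6 by 1.12 ± 0.24 (0.00396). Of the 5 that rose, Sort1 (1.12 ± 0.19, limma adjusted p = 0.00078) and Pik3cb (1.10 ± 0.18, 0.000645) rose most. In lean mice 0 of 34 passed by limma for FBC minus FB, against 0.193% of all genes, with 3 at an unadjusted p under 0.05. In obese mice 2 passed, both lower in FBC, 5.88% against 8.39% of all genes (3.28% lower): Slc2a6 (-1.23 ± 0.34, limma adjusted p = 0.0328) and hexokinase 2, Hk2 (-0.73 ± 0.20, limma adjusted p = 0.0352). Each of these calls ended without obese FB array 2, 3 or 4 or obese FBC array 2 or 3, and that of Hk2 also without obese FBC array 4 (limma adjusted p up to 0.109). Both calls also ended with the actin ratio as a covariate (0.108 each), and that of Hk2 with no filter, no quantile normalization or median centring (up to 0.12). With obesity, Slc2a3 fell by 0.78 with the mean of its probe sets, and by nearly as little without the 3 arrays of high actin ratio, and Slc2a6 by 0.69 with array weights, both still called.

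Tbc1d4 was also set beside 38 other genes of proteins with the TBC domain, which confers GTPase activation on Rab proteins. Of 35 tested, 4 were higher and 0 lower in obese FBC than in obese FB, 11.4% called against 8.39% of all genes (5.11% higher, 3.28% lower). They were Tbc1d2 (1.24 ± 0.30, limma adjusted p = 0.0182), Tbc1d20 (0.87 ± 0.21, 0.0155), Tbc1d22a (0.77 ± 0.20, 0.0263) and Tbc1d10b (0.69 ± 0.20, 0.0457). The count was 1 or 2 without obese FB array 2 or 3 or obese FBC array 2, 3 or 4, and the call of Tbc1d20 was lost with the mean of its probe sets (0.468). That of Tbc1d22a was lost with the mean of probe sets or the actin covariate (up to 0.0976) and without obese FB array 1, 2 or 3 or obese FBC array 2 or 3 (up to 0.0757). That of Tbc1d2 was lost with a pseudocount of 1 (0.0593) and without obese FBC array 2 or 4 (up to 0.0602). In lean mice 0 passed by limma, against 0.193% of all genes, with 1 at an unadjusted p under 0.05. With obesity 3 rose and 2 fell, 14.3% against 18.9% of all genes, led by Tbc1d2 up (1.13 ± 0.21, limma adjusted p = 0.00173) and Evi5 (-0.90 ± 0.22, 0.0101) and Rabgap1l (-0.78 ± 0.13, 0.000706) down. Still called, Rabgap1l was at -0.48 with the mean of its probe sets and Tbc1d2 at 1.80 with a pseudocount of 1. The closest relative of Tbc1d4, Tbc1d1, passed in none of the 3 comparisons (limma adjusted p 0.33 to 0.898).

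Around Wfs1, a list of 40 genes of endoplasmic reticulum stress and calcium handling had 39 tested, and more fell than rose with obesity. Of the 39, 3 rose and 7 fell, 25.6% against 18.9% of all genes (10.1% higher, 8.78% lower), while Wfs1 rose. The stress transcription factor Atf4 fell by 0.77 ± 0.12 (limma adjusted p = 0.00026) and Herpud1, of protein degradation at the endoplasmic reticulum, by 0.74 ± 0.17 (0.00704). With the mean of its probe sets Atf4 fell by 0.47 and was still called. The calcium release channel Itpr3 rose by 0.80 ± 0.27 (0.0451), a call lost without any 1 of 13 of the 16 arrays. The list count was 4 to 6 without lean FB array 1, 2 or 3, lean FBC array 2, obese FB array 2 or 3 or obese FBC array 1, 2 or 4, and 4 with the array number as a random block. The chaperone Hspa5, a standard marker of the unfolded protein response, did not pass (-0.18 ± 0.09, limma adjusted p = 0.204).

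In obese FBC against FB, 1 gene of the Wfs1 list rose and 2 fell, 7.69% against 8.39% of all genes. The sodium pump subunit Atp1b1 was higher by 2.09 ± 0.52 (limma adjusted p = 0.0192). Wolframin is known to bind this kind of subunit. Atf4 was lower (-0.77 ± 0.17, 0.00834), and so was Cisd2 (-0.82 ± 0.23, 0.0354), whose loss causes the second form of Wolfram syndrome. The calls of Atp1b1 and Cisd2 ended without obese FB array 3 or obese FBC array 2 or 3, and that of Cisd2 also without obese FB array 2 or 4 or obese FBC array 4 (limma adjusted p up to 0.124). Both also ended with the actin covariate (0.0524 for Atp1b1), and that of Cisd2 with no filter, the mean of its probe sets or median centring (up to 0.171). The count was 1 without obese FB array 3 or obese FBC array 2 or 3, and the call of Atf4 was lost with the mean of its probe sets (0.477). In lean mice 0 passed by limma, against 0.193% of all genes, with 2 at an unadjusted p under 0.05.

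**Figure D4:**
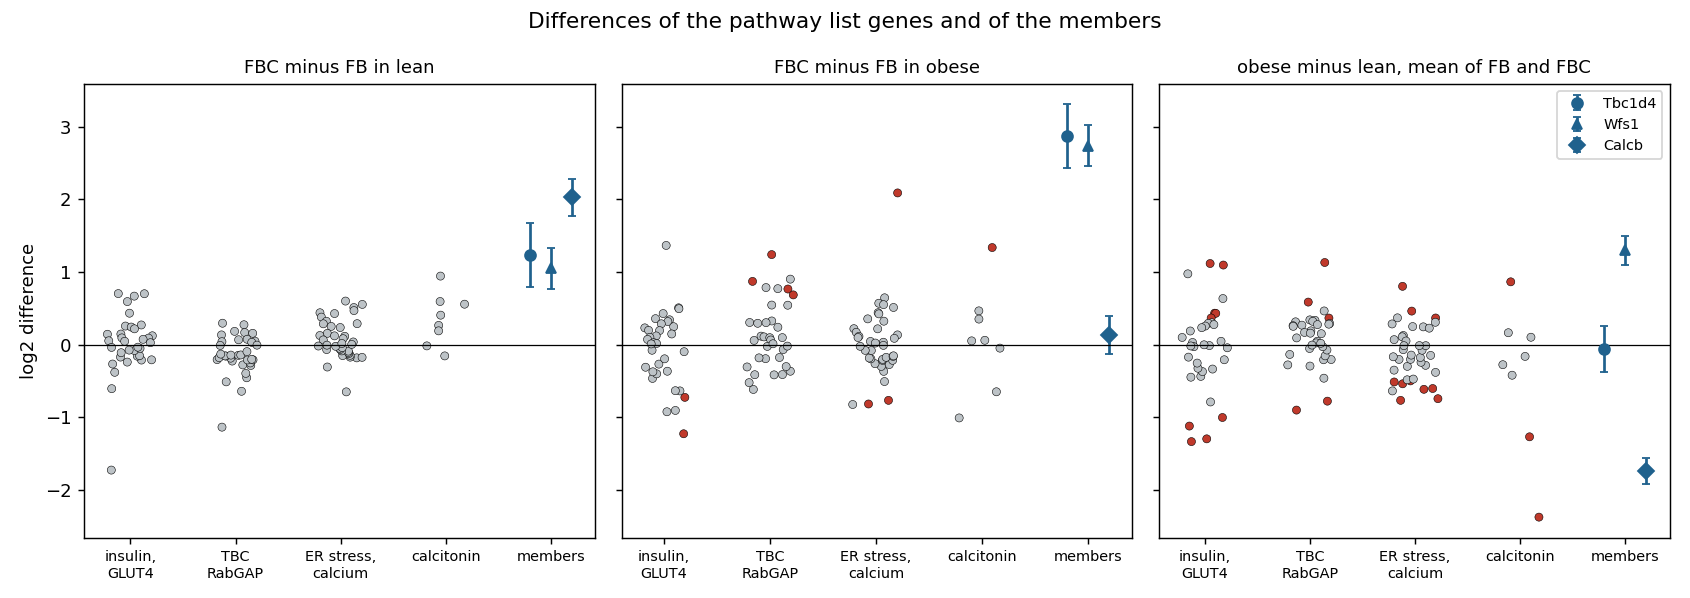
Log2 differences from limma of the tested genes of the 4 lists (points, red where the adjusted p was under 0.05) and of the 3 genes chosen (blue, ± SE), for the 3 comparisons; horizontal scatter within a list has no meaning. No list gene is red for FBC minus FB in lean mice, and Tbc1d4 and Wfs1 lie above all list genes for FBC minus FB in obese mice, where they were chosen to be high.

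The genes most like each of the 3 were found by Pearson r of the log2 level over the 16 arrays, which share 4 groups, so r is a description. Nearest to Wfs1 were Rassf8 (0.954), the zinc transporter Slc39a11 (0.939), the lysosomal membrane glycoprotein Gpnmb (0.935), Npas4 (0.934) and Lhfpl2 (0.932). All of them had their highest group mean in obese FBC, with Gpnmb at 12.50 there and 7.91 in lean FB. Nearest to Tbc1d4 were Tlr3, a receptor for double-stranded RNA (0.904), Cd200r4 (0.883), Anapc15 (0.873), Tmem267 (0.873) and Prps2 (0.87), each with its highest group mean in obese FBC and its lowest in obese FB or, for Cd200r4, lean FB. Nearest to Calcb were Slc27a3, of the fatty acid transport protein family (0.939), the pyrimidine-degrading enzyme Upb1 (0.938), the sodium channel subunit Scn2b (0.935), Car6 (0.913) and Ahcyl2 (0.905). All of these had their highest group mean in lean FBC, and the rank correlation of Car6 was lower, at 0.582.

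Among themselves, Tbc1d4 and Wfs1 correlated at r = 0.736 over the 16 arrays, Tbc1d4 and Calcb at 0.24 and Wfs1 and Calcb at -0.183. With Itgax, the sort marker, r was 0.808 for Wfs1, 0.761 for Tbc1d4 and 0.267 for Calcb. Within lean FBC the genes did not share their high arrays: Tbc1d4 1435292 was highest on array 2, Wfs1 on array 1 and Calcb on array 4. In obese FBC, array 3 was the lowest for both Wfs1 and Tbc1d4 1435292.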

How the data were processed

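The authors deposited 1 intensity per probe set and array, on a linear scale. The submitters' processing notes name Affymetrix Expression Console; its version, the summarization method and the build were not given in the sources used here. From these values log2(intensity + 16) was computed and quantile-normalized over the 16 arrays. The platform has 45101 probe sets, of which 34945 carried 1 symbol in the platform annotation, 932 several, 9160 none and 64 were controls. For 34741 of the single-symbol probe sets the gene ID was in a RefSeq table, and 0 symbols differed. Each gene was taken by its brightest single-symbol probe set, and genes were fitted where 4 or more arrays had them above the array median, which left 11908.

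One limma model of the 4 groups (12 residual and 16.5 total degrees of freedom) was used, with Benjamini-Hochberg adjustment over all genes tested and a threshold of 0.05. The code was run on simulated data with independent noise of the same spread for every gene. That run lacked the differing spreads, RNA quality and any pairing of these arrays, so it does not show how the model performs on them. Calls and lists were read for 3 contrasts; the 3 genes were tested only in obese minus lean averaged over FB and FBC. The genes and lists were chosen with earlier results of these data known. Named were the 3 genes, the sort markers, up to 3 called genes of the largest change per list and comparison, and all measured calcitonin family genes. The 5 most correlated genes were named too, symbols of clones and models left out. Tbc1d10b, Tbc1d1, Hspa5, Sort1 and Pik3cb of the lists and Slc2a4 were added after their values were seen. So were Csf1r, Cd68, Lyz2, Mertk, Fcgr1, Ccr7, Flt3, Xcr1 and Siglecf of the markers. Same-numbered lean FB and FBC arrays had residual correlations of 0.135 to 0.595, all above 0.1, and obese ones of -0.137 to 0.31. The value of 0.595 was that of lean arrays 4, both of high actin ratio. The correlation between arrays of different numbers was not computed, so these values do not show whether the numbers pair arrays. Alternatives covered the filter, probe set choice, normalization, pseudocount, moderation, array weights, RNA quality, pairing and each array left out. The fits used limma 3.58.1 in R 4.3.3, and sequences and plots Python 3.11.15 with matplotlib 3.10.9.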

Additional observations from a re-analysis of the deposited data

Results flagged for a closer look

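Wfs1 on obese FBC array 3 stood apart from the other obese FBC arrays. Its normalized log2 level was 10.53, against 11.12 on each of the others, a gap of 0.989 of the group's range, above Dixon's critical value for 4 samples. It remained above every array of the other 3 groups. Of the 16 groups of 4 arrays checked (4 probe sets in 4 groups) this 1 was flagged, and chance flags about 1 in 20.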

How the results depend on the processing

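Under 12 alternative settings the obesity contrast kept its direction and its side of the threshold for Wfs1 (1.23 to 1.41, limma adjusted p at most 0.0016) and Calcb (-2.47 to -1.58, at most 2.71e-05), and Tbc1d4 passed under none of 13 (-0.41 to -0.03). None of these settings lifts the limit that Calcb was chosen for its high level in lean FBC. Leaving out each array gave 1.20 to 1.42 for Wfs1, -1.87 to -1.64 for Calcb and -0.20 to 0.14 for Tbc1d4. FBC minus FB without each array was 0.81 to 1.21 in lean and 2.61 to 2.90 in obese mice for Wfs1, 1.82 to 2.27 and -0.04 to 0.26 for Calcb, and 0.84 to 1.51 and 2.69 to 3.25 for Tbc1d4. Tbc1d4 depended on its probe set: 0.40 in lean and 2.12 in obese mice with the mean of its probe sets, and -0.43 and 1.37 with the other one, an alternative chosen after seeing the data. With array weights the lean difference was 0.58 for Wfs1 and 1.90 for Tbc1d4.

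List counts were less stable; the cause was not tested. With array weights the insulin, TBC, endoplasmic reticulum and calcitonin lists had 5, 6, 2 and 1 calls for FBC minus FB in lean mice and 5, 7, 6 and 3 in obese mice, and the first 3 had 20, 16 and 20 for obesity. All genes called with array weights were 5451 for obesity, 1324 in lean and 2202 in obese mice, against 2245, 23 and 999. In lean mice they were 62 with the actin covariate, 42 with median centring, 37 with a filter at the 60th percentile and 15 without the 3 arrays of high actin ratio, which gave 3739 for obesity. In obese mice the insulin list had 1 call with no filter, no quantile normalization, median centring or the actin covariate (with the last, neither Slc2a6 nor Hk2), and 4 with the mean of probe sets. The TBC list had 2 with the mean of probe sets, a pseudocount of 1 or the actin covariate, the endoplasmic reticulum list 1 with the mean or the covariate, and the calcitonin list 0 with the covariate. Without the 3 arrays of high actin ratio the obesity counts were 14 (insulin) and 9 (TBC), and the calcitonin list had 2 in obese mice. For obesity the endoplasmic reticulum list had 6 with no filter. With the replicate block the values of the 3 genes did not change and no call of theirs ended; as a fixed block it gave the calcitonin list 3 calls in obese mice, and as a random block 2, with 4 for the insulin list in obese mice and 4 for the endoplasmic reticulum list for obesity. All genes called in lean mice were 51 with the fixed and 74 with the random block, and in obese mice 1655 and 1746. Leaving out each array gave obesity counts of 6 to 10 (insulin), 4 to 7 (TBC), 4 to 10 (endoplasmic reticulum) and 3 to 3 (calcitonin), counts in obese mice of 0 to 3, 1 to 5, 1 to 4 and 0 to 2, and 0 in lean mice for all 4 lists. Counts of all genes then ran from 1770 to 2707 for obesity, 8 to 34 in lean and 553 to 1328 in obese mice. Signals under the array median, as of Calcb in obese mice, limit how well the size of a fall is known.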
